A study of Sus scrofa with 9 samples.

Results

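The enzymes that make and conjugate androgens and oestrogens were followed in boar testis by 22 probes out of the 60889 non-control probes of a porcine expression array. The probes were those whose gene annotation, or the symbol in parentheses in their description, named CYP11A1, CYP17A1, CYP19A1, HSD3B1, HSD3B, HSD17B3, HSD17B4, CYB5A or SULT1E1. Of these 9 names, 7 had a probe, among 7147 gene symbols named on the array. CYB5A had 7 probes, CYP11A1 had 4, CYP19A1 and HSD17B4 had 3 each, CYP17A1 and HSD3B1 had 2 each and SULT1E1 had 1. No probe matched the names HSD3B and HSD17B3, so the last step to testosterone was not analysed here.

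The arrays covered 3 groups of 3 testis RNA samples. The first came from fertile control boars with normal semen, and the second from an oligospermic boar, that is, a boar with a low sperm count. The third came from a boar with oligo-astheno-teratospermia (few, poorly motile and malformed sperm) that carried the reciprocal translocation t(1;14) between chromosomes 1 and 14 and was a Landrace by Duroc crossbred. The t(1;14) group and the oligospermic group were 1 boar each, and the sources used here do not say which control boar each control array holds. P-values therefore measured the spread between arrays, which in these 2 groups held samples of 1 boar each. A difference between boars cannot be told apart from a difference between conditions.

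Androgens and oestrogens are made from cholesterol, mainly in the Leydig cells between the seminiferous tubules. CYP11A1 cuts the cholesterol side chain in the mitochondrion to give pregnenolone, HSD3B enzymes convert pregnenolone and its relatives into the next series of steroids, and CYP17A1 adds a hydroxyl group and then removes the side chain to give androgens, the second reaction being helped by cytochrome b5, the product of CYB5A. CYP19A1 is aromatase, which turns androgens into oestrogens, HSD17B4 oxidises oestradiol and also works in peroxisomal fatty acid breakdown, and SULT1E1 adds a sulphate group to oestrogens. The boar testis is known for an unusually high output of oestrogens and of sulphated steroids.

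The probes were single strands of 60 bases. Some of those for the enzymes on which the results turn are given here, 5′ to 3′ as the array files list them, with the base of the transcript at which those files place each one. They are shown because each value below is the brightness of such a spot.
CYP11A1, base 325: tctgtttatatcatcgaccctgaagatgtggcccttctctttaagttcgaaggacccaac
CYP17A1, base 1072: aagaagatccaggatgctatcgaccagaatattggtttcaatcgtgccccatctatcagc
CYP17A1, base 1226: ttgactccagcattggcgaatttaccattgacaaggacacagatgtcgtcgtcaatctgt
HSD3B1, base 1061: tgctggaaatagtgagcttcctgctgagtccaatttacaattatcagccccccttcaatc
HSD17B4, base 2101: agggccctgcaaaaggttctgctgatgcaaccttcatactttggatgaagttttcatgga

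Values are log2 of the processed spot signal after quantile normalization over the 9 arrays, so that a difference of 1 is a doubling. A probe was retained when its spots were well above background on at least 2 of the 3 arrays of any group, which held for 41105 probes and for 20 of the 22 enzyme probes. A probe was said to have risen or fallen when limma gave a Benjamini-Hochberg adjusted p of at most 0.01, and to be differential when its log2 fold change was also at least 2 in size. Between 37087 and 40632 probes were well above background on an array, and no enzyme probe was saturated. Because brightness depends on the probe, levels are compared between groups and never between probes.

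In the t(1;14) testis the enzymes of androgen synthesis were higher than in control testis, led by CYP11A1, whose probes rose 3.69- to 5.94-fold, and CYP17A1, with 5.21- and 5.25-fold. Probes of CYB5A rose 2.52- to 3.56-fold and those of HSD17B4 2.47- to 3.09-fold, HSD3B1 was 1.52-fold higher by 1 of its probes, and neither CYP19A1 nor SULT1E1 passed the test. Of the 20 retained enzyme probes, 17 rose and 0 fell, from 5 genes, where 20% of all retained probes rose and 18.5% fell. Differential probes numbered 5, all higher, from CYP11A1 and CYP17A1, against 1.41% of all retained probes called differential and higher. The median log2 fold change was 1.63 over the 20 enzyme probes and 0.13 over all retained probes. Arrays of the groups did not overlap, with t(1;14) higher, for 18 of the 20, against 35.4% of all retained probes. With a single probe per gene, the retained one that was brightest on average, 5 of 7 enzyme genes rose, against 20.6% of the 6166 named genes. One of the 20, the HSD3B1 probe at base 257, was retained through the t(1;14) arrays alone. In bulk tissue such as this, fewer or more cells of a type and less or more RNA per cell cannot be told apart.

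**Figure D1:**
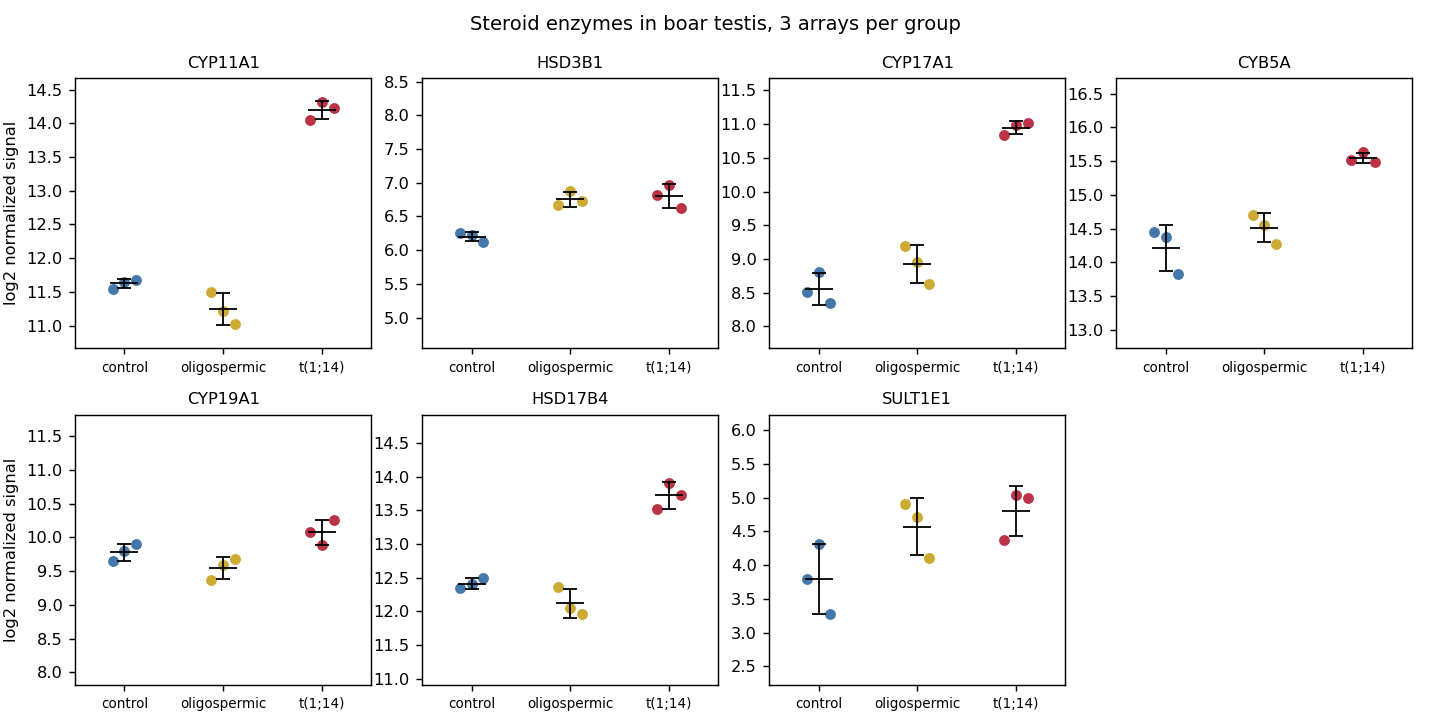
Log2 normalized signal of the brightest retained probe of each of the 7 enzyme genes, in control, oligospermic and t(1;14) testis. Coloured points are the 3 arrays of a group, the long black tick is their mean and the bars are 1 SD, and every panel spans 4 log2 units. For CYP11A1, CYP17A1, CYB5A and HSD17B4 the t(1;14) arrays lie above all the others, whereas for HSD3B1 the oligospermic arrays lie beside them.

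CYP11A1, the first enzyme of the pathway, was measured by its probe at base 1943 at 11.54, 11.65 and 11.68 on the control arrays, at 11.50, 11.21 and 11.02 on the oligospermic arrays, and at 14.05, 14.31 and 14.23 on the t(1;14) arrays. Values on the t(1;14) arrays stood far above the other 6, and the oligospermic arrays lay just below the controls without overlapping them. Against control the t(1;14) mean was higher by 2.57 ± 0.14 (SE, n = 3 and 3), a 5.94-fold rise, with a limma adjusted p of 5.75e-06. The probes at bases 1478, 325 and 903 gave rises of 2.38, 2.11 and 1.88, so that 3 of the 4 CYP11A1 probes were differential and the fourth fell short on size alone. Compared within each of the 3 slides, which each held 1 array of every group, the difference at base 1943 was 2.77, 2.57 and 2.37.

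HSD3B1, whose product acts on the pregnenolone that CYP11A1 makes, moved much less. Its probe at base 1061 gave 6.25, 6.23 and 6.12 on the control arrays, 6.67, 6.87 and 6.72 on the oligospermic arrays and 6.81, 6.97 and 6.62 on the t(1;14) arrays. Arrays of both boars with poor semen were above the controls without overlap, and overlapped each other. The rise in t(1;14) testis was 0.60 ± 0.12 (SE, n = 3 and 3; limma adjusted p = 0.00318), a change that no longer passed without control replicate 3, t(1;14) replicate 1 or t(1;14) replicate 2, with limma adjusted p of 0.0111, 0.0135 and 0.0125. With normexp the rise was 0.37 and still passed (limma adjusted p = 0.00422). The probe at base 257 gave 0.65 ± 0.34 (limma adjusted p = 0.135) and was well above background on 1 control array, 1 oligospermic array and 3 t(1;14) arrays. The change of CYP11A1 exceeded that of HSD3B1 by 1.97 on the log2 scale, with the difference between the probes on the t(1;14) arrays above that on every control array. An exact two-sided permutation test gave p = 0.1, the smallest that 3 against 3 arrays allow.

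CYP17A1, the enzyme that commits steroids to the androgen branch, gave 8.51, 8.81 and 8.34 on the control arrays by its probe at base 1226, then 9.20, 8.95 and 8.63 on the oligospermic arrays and 10.84, 10.98 and 11.02 on the t(1;14) arrays. Again the t(1;14) arrays were apart, and the control and oligospermic arrays overlapped. The rise over control was 2.39 ± 0.18 (SE, n = 3 and 3; 5.25-fold; limma adjusted p = 1.64e-05), and the probe at base 1072 gave 2.38 ± 0.17. Within slides the difference at base 1226 was 2.48, 2.20 and 2.50. CYP17A1 lies on chromosome 14 of the Sscrofa11.1 assembly, one of the chromosomes of the translocation, while CYP11A1 lies on chromosome 7 and HSD3B1 on chromosome 4.

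CYB5A, the cytochrome b5 that assists the side chain removal by CYP17A1, was the enzyme set's most densely probed gene. Its probe of highest mean signal, at base 1583, gave 14.44, 14.38 and 13.82 on the control arrays, 14.70, 14.56 and 14.28 on the oligospermic arrays and 15.52, 15.64 and 15.49 on the t(1;14) arrays. All t(1;14) arrays were above the others, and control replicate 3 was the lowest of the 9. This probe gave the smallest rise of the 7, 1.33 ± 0.19 (SE, n = 3 and 3; limma adjusted p = 0.000505), and the probe at base 1494 the largest, 1.83 ± 0.24. All 7 CYB5A probes rose in t(1;14) testis and 0 were differential. A pair of them, at bases 1455 and 1489, share a run of 19 bases, so the 7 probes are not independent readings. CYB5A lies on chromosome 1, the other chromosome of the translocation.

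**Figure D2:**
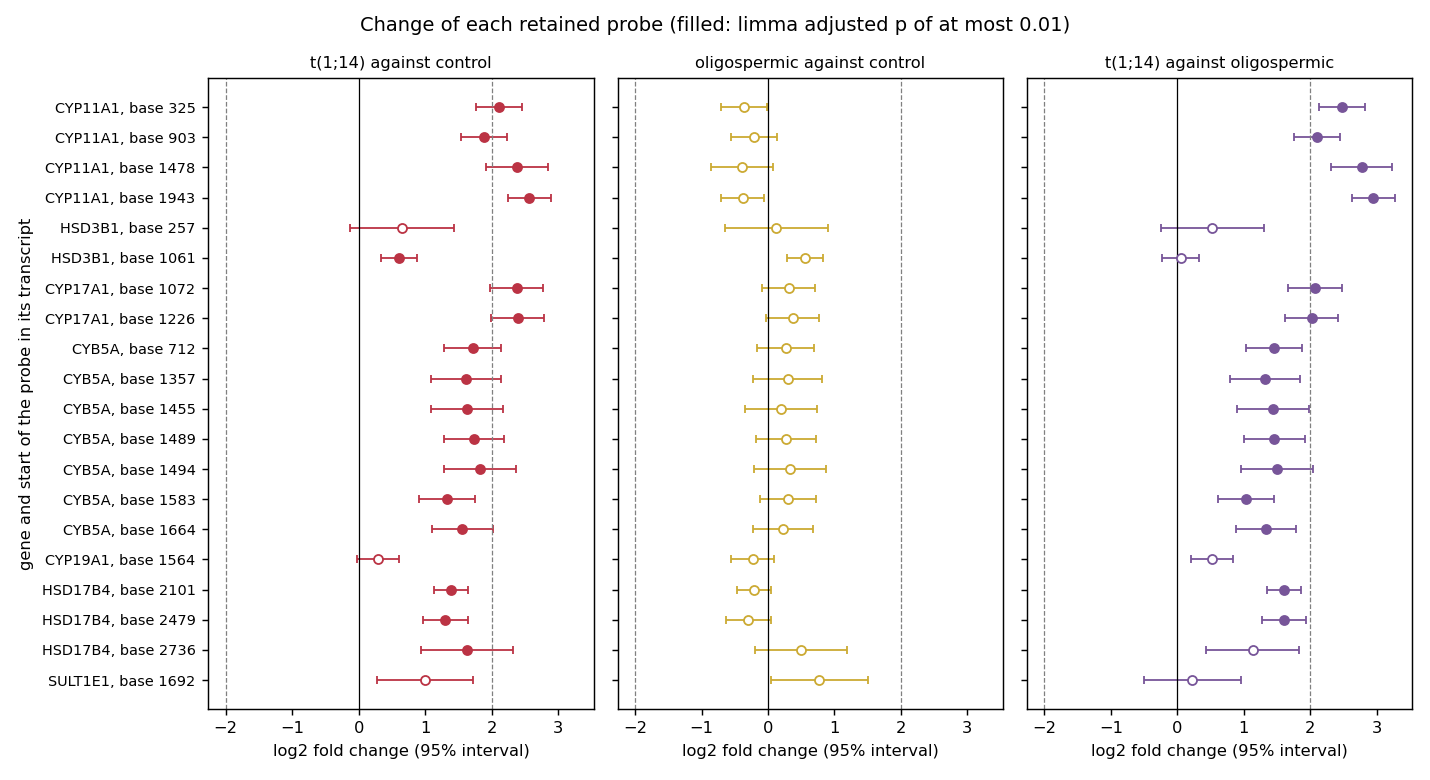
Log2 fold change with its 95% interval for each of the 20 retained enzyme probes in the 3 comparisons, labelled by gene and by the base of the transcript where the probe starts. Filled points had a limma adjusted p of at most 0.01, dashed lines mark a log2 fold change of 2 in either direction, and all 20 points lie above 0 for t(1;14) against control, whereas no point is filled for oligospermic against control.

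Aromatase, the product of CYP19A1, was read by 1 usable probe. At base 1564 it gave 9.65, 9.80 and 9.90 on the control arrays, 9.37, 9.60 and 9.68 on the oligospermic arrays and 10.08, 9.88 and 10.26 on the t(1;14) arrays. Control and t(1;14) arrays overlapped. The difference was 0.29 ± 0.14 (SE, n = 3 and 3; limma adjusted p = 0.106), with a 95% interval from -0.02 to 0.61, and 0.13 was the median over all probes. The other CYP19A1 probes, at base 2418 and 1 of a custom set with no stated position, have the same 60 bases and were not well above background on any of the 9 arrays. The change of CYP17A1 exceeded that of CYP19A1 by 2.10 on the log2 scale (exact two-sided permutation p = 0.1, the smallest possible).

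The pig carries further aromatase genes beside CYP19A1, and their probes were looked at after the values of CYP19A1 were seen. In RefSeq's Sscrofa11.1 annotation CYP19A3, CYP19A1 and CYP19A2 follow each other on chromosome 1. The CYP19A3 probe of highest mean signal gave 7.47, 8.33 and 7.32 on the control arrays, 9.07, 9.08 and 8.66 on the oligospermic arrays and 11.32, 11.41 and 11.58 on the t(1;14) arrays. On this probe all 3 groups were separate from each other, in the order control, oligospermic, t(1;14). The rise in t(1;14) over control testis was 3.73 ± 0.26 (SE, n = 3 and 3; 13.2-fold; limma adjusted p = 1.27e-05), and the other CYP19A3 probe gave 3.00 ± 0.23, with control and oligospermic arrays that overlapped. The CYP19A2 probe gave 6.10, 6.96 and 6.11 on the control arrays, 7.23, 7.82 and 7.40 on the oligospermic arrays and 10.07, 9.44 and 10.31 on the t(1;14) arrays, a rise of 3.56 ± 0.31 (11.8-fold; limma adjusted p = 3.60e-05). For CYP19A2 too, the groups followed the same order without overlap. In oligospermic against control testis the CYP19A3 probes differed by 1.23 and 0.45 and the CYP19A2 probe by 1.09, with limma adjusted p of 0.073, 0.463 and 0.166, so none passed.

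These probes differ in how much sequence they share. The CYP19A3 probe of highest mean signal and the CYP19A2 probe have a run of 25 bases in common, and the retained CYP19A1 probe shares 14 bases with the CYP19A2 probe and 7 with this CYP19A3 probe. The other CYP19A3 probe, which also rose, shares at most 8 bases with any of them, 5 with the CYP19A2 probe and 4 with the retained CYP19A1 probe. Binding of one gene's transcript to another's probe was not tested. The change of CYP19A3 exceeded that of CYP19A1 by 3.43 and that of CYP19A2 exceeded it by 3.26 on the log2 scale. Each had an exact two-sided permutation p of 0.1, the smallest possible.

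**Figure D3:**
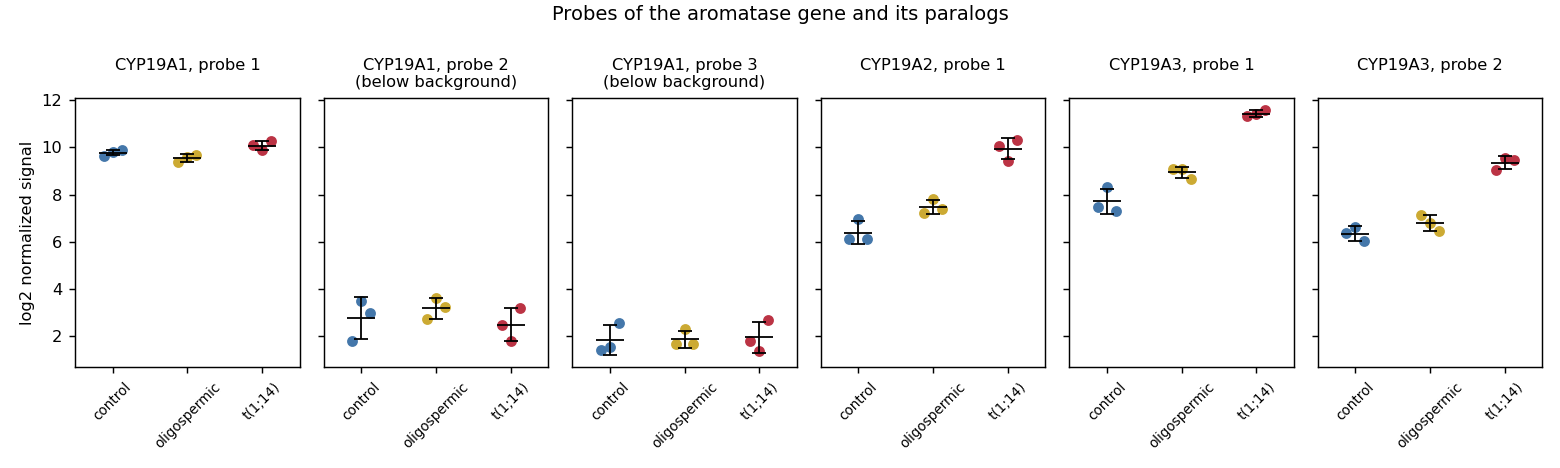
Log2 normalized signal of the 3 CYP19A1 probes, the CYP19A2 probe and both CYP19A3 probes in control, oligospermic and t(1;14) testis. Points are arrays, ticks are means and bars are 1 SD with 3 arrays per group, and levels of different probes are not comparable. The first CYP19A1 probe stays between 9.37 and 10.26 on all arrays, its other probes were not well above background, and the CYP19A2 and CYP19A3 probes are highest on the t(1;14) arrays.

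Among the enzymes that inactivate oestrogens, HSD17B4 rose and SULT1E1 did not pass. The HSD17B4 probe at base 2479 gave 12.35, 12.40 and 12.49 on the control arrays, 12.36, 12.04 and 11.96 on the oligospermic arrays and 13.52, 13.91 and 13.73 on the t(1;14) arrays. The t(1;14) arrays were above all others, with a rise over control of 1.31 ± 0.15 (SE, n = 3 and 3; 2.47-fold; limma adjusted p = 0.000147). The probes at bases 2101 and 2736 gave rises of 1.39 ± 0.11 and 1.63 ± 0.30, the last with control arrays spread from 10.70 to 12.10.

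SULT1E1, the oestrogen sulphotransferase, was read by a single probe. It gave 3.79, 4.31 and 3.28 on the control arrays, 4.90, 4.71 and 4.10 on the oligospermic arrays and 4.37, 5.04 and 4.99 on the t(1;14) arrays. The t(1;14) arrays were all above the controls, by little for the nearest pair, and overlapped the oligospermic arrays. Their mean exceeded the control mean by 1.00 ± 0.32 (SE, n = 3 and 3; limma adjusted p = 0.0263). The probe was well above background on all 9 arrays. With the slide as a block limma gave an adjusted p of 0.0017, which passes, and with another background correction (normexp) the difference was 0.25 and did not pass (limma adjusted p = 0.0626).

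**Figure D4:**
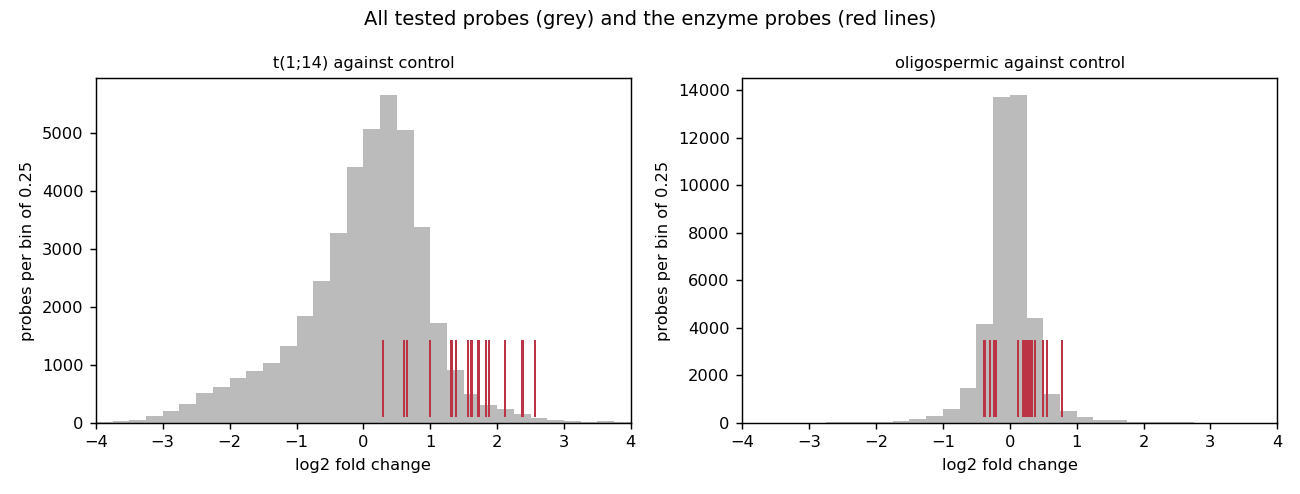
Distribution of log2 fold changes over the 41105 retained probes in bins of 0.25 (grey), with the 20 enzyme probes as red lines, for t(1;14) against control and for oligospermic against control. The enzyme probes run from 0.29 to 2.57 in the first panel, where 95% of all probes lie below 1.32, and from -0.39 to 0.77 in the second.

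In oligospermic against control testis 0 of the 20 enzyme probes rose or fell by limma, where 0.224% of all retained probes did and 0.112% were differential, and 4 had an unadjusted p under 0.05, where 13% of all retained probes did. The smallest limma adjusted p, 0.0831, belonged to HSD3B1 at base 1061, with a difference of 0.55 ± 0.12 (SE, n = 3 and 3), or 0.32 with normexp. Arrays of these groups did not overlap for 3 of the 20 probes, against 15.5% of all retained probes, and these were the HSD3B1 probe just named, higher, and CYP11A1 at base 1943 and HSD17B4 at base 2101, lower. The differences of the 4 CYP11A1 probes ran from -0.39 to -0.21 with limma adjusted p from 0.30 to 0.63. Those of the 7 CYB5A probes ran from 0.19 to 0.33, and CYP17A1 at base 1226 gave 0.37 ± 0.18 (limma adjusted p = 0.429), with a 95% interval from -0.03 to 0.77. Without oligospermic replicate 1 the CYP17A1 difference was 0.24, and without control replicate 3 that of CYB5A at base 1583 was 0.10 in place of 0.30. Largest of the enzyme probes was the SULT1E1 difference, 0.77 ± 0.32 (limma adjusted p = 0.345), or 0.19 with normexp.

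Set against the oligospermic testis, from a boar with a low sperm count that is not labelled as a carrier, the t(1;14) testis again had higher CYP11A1, CYP17A1, CYB5A and HSD17B4. Of the 20 retained probes 15 rose and 0 fell, against 22.8% of all retained probes that rose and 19.9% that fell, and 6 were differential, all 4 CYP11A1 probes and both CYP17A1 probes, against 1.84%. CYP11A1 at base 1943 was higher by 2.95 ± 0.14 (SE, n = 3 and 3; limma adjusted p = 4.06e-06), CYP17A1 at base 1226 by 2.02 ± 0.18 and HSD17B4 at base 2479 by 1.60 ± 0.15. The 7 CYB5A probes rose by 1.04 to 1.50. Without oligospermic replicate 3 the differential probes numbered 3 in place of 6. This comparison shares the t(1;14) arrays with the one against control and is no second test of them.

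The call for CYP19A1 in that comparison depended on the model. It was higher by 0.53 ± 0.14 without overlap of the arrays and just missed the threshold (limma adjusted p = 0.0112), whereas with the slide as a block it passed (limma adjusted p = 0.00352). Within slides the difference was 0.51, 0.66 and 0.40, and 6 of 18 alternative analyses passed, with adjusted p from 0.00352 to 0.0444 over all 18. HSD3B1 at base 1061 differed by 0.05, with a 95% interval from -0.23 to 0.32, and SULT1E1 by 0.23, with an interval from -0.50 to 0.95. HSD17B4 at base 2736 differed by 1.13 with a limma adjusted p of 0.0121.

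The other genes of steroid metabolism were taken from lists of 49 symbols, of which 24 had a retained probe. In t(1;14) against control testis 10 of the 24 rose and 0 fell by their brightest retained probes, where 20.6% of all named genes rose and 22.4% fell, and their median log2 fold change was 0.66 against 0.07 over all named genes. In oligospermic against control testis 0 of the 24 passed by limma, against 0.195% of all named genes, with 5 at an unadjusted p under 0.05, where 13.7% of all named genes were. Against oligospermic testis 13 rose and 1 fell in t(1;14) testis, where 22.9% of all named genes rose and 23.9% fell.

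Among the 24 list genes the largest rises were upstream of CYP11A1 and in sulphation. STAR, which carries cholesterol into the mitochondrion, gave 10.95, 11.67 and 10.72 on the control arrays and 14.73, 14.87 and 14.89 on the t(1;14) arrays, a rise of 3.72 ± 0.27 (SE, n = 3 and 3; limma adjusted p = 1.50e-05). LHCGR, the receptor through which luteinizing hormone drives Leydig cells, rose by 2.73 ± 0.19 (limma adjusted p = 1.34e-05). PAPSS2, which makes the sulphate donor used by sulphotransferases such as SULT1E1, rose by 3.02 ± 0.16 (limma adjusted p = 5.38e-06). For all 3 genes the t(1;14) arrays lay above every control and oligospermic array.

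By list, 4 of 6 measured genes of cholesterol supply and its control rose, as did 3 of 4 electron donors, 2 of 6 genes of conversion and conjugation and 1 of 6 other hydroxysteroid dehydrogenases. None of the corticoid branch genes had a retained probe. The electron donors that rose were FDXR, by 1.68 ± 0.11, and FDX1, by 1.06 ± 0.12, the pair that passes electrons to CYP11A1, and POR, which serves CYP17A1 and aromatase, by 0.54 ± 0.09 on 1 of its 3 retained probes and with differences of 0.35 and 0.05 that did not pass on the others. The second gene of conversion and conjugation was SULT2A1, which sulphates dehydroepiandrosterone and rose by 2.46 ± 0.25. The dehydrogenase was HSD17B1, whose 2 retained probes went opposite ways, so its direction is unsettled. HSD11B2, which inactivates glucocorticoids, fell on 1 of its 2 retained probes by 1.06 ± 0.26, with a difference of -0.99 on the brightest (limma adjusted p = 0.0113). These electron donors, SULT2A1, HSD17B1 and HSD11B2 are named after their values were seen.

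**Figure D5:**
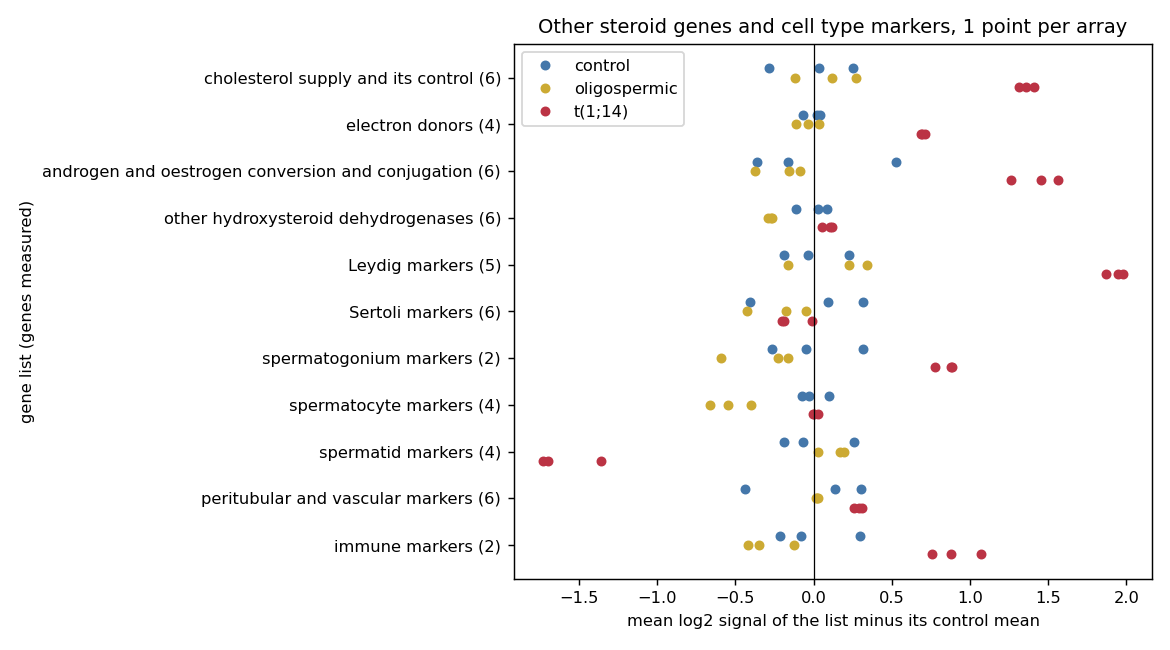
Mean log2 signal of each gene list on each array, minus the mean of the control arrays, with the number of measured genes in parentheses. Each point is 1 array. Saturated probes are left out. For the Leydig list the t(1;14) arrays lie between 1.87 and 1.98 and for the spermatid list between -1.73 and -1.36, outside the range of the control and oligospermic arrays in both. Of the other marker lists, those of spermatogonia and immune cells also have every t(1;14) array above the control and oligospermic arrays.

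Averaged on each array, the Leydig cell, spermatid, spermatogonium and immune marker lists set t(1;14) testis apart from control and oligospermic testis. Over all named genes 20.6% rose and 22.4% fell in t(1;14) against control testis, the shares against which the marker counts stand. Markers were read by the brightest retained probe of each gene that was saturated on no array, a rule set after saturation of several marker probes was seen. Of the Leydig cell list 5 of 6 genes were measured and 4 rose in t(1;14) testis, STAR, LHCGR, NR5A1 and INSL3, while HSD11B1 differed by 0.22. INSL3, a Leydig cell hormone, rose by 1.92 ± 0.26 (SE, n = 3 and 3; limma adjusted p = 0.000439) on its unsaturated probe, whose control mean was 6.55. Its other probes had control means of 15.76 and 15.72 and were each saturated on 3 arrays. They differed by 0.34 and 0.38 and did not pass (limma adjusted p = 0.0428 and 0.0467). NR5A1, a nuclear receptor that controls steroid enzyme genes, rose on 1 of its 3 retained probes, by 1.07, and differed by 0.55 and 0.14 on the others. Averaged over the Leydig list, the t(1;14) arrays were 1.87 to 1.98 above the control mean, the controls -0.19 to 0.22 and the oligospermic arrays -0.16 to 0.34. With saturated probes kept, 3 of the 5 genes rose and the t(1;14) arrays were 1.58 to 1.64 above the control mean. Of these 5 genes, 4 also belong to the steroid lists above. Of the 9 genes of the spermatid list 4 had such a probe, of which ODF1, AKAP4 and ACR fell and TNP2 did not pass (-0.44), although TNP2 fell on 2 of its 3 saturated probes, with the t(1;14) arrays at -1.73 to -1.36. PRM1, PRM2 and TNP1 had a saturated probe only and are not counted. On that probe they differed by -0.01, -0.32 and -0.19 and did not pass. With saturated probes kept, 4 of 7 measured spermatid genes fell and the t(1;14) arrays lay at -1.13 to -1.03. Both measured spermatogonium markers rose, of 7 listed, KIT on 1 of 4 probes and UCHL1 on 2 of 3, at 0.78 to 0.89 on the t(1;14) arrays. Of the Sertoli cell list 6 of 8 genes were measured and 1, WT1, fell, with the t(1;14) arrays at -0.20 to -0.01. Of 4 measured spermatocyte markers 1 rose and 1 fell, of 6 peritubular and vascular markers 2 rose and 1 fell, and of 2 immune markers 1 rose. The immune list lay at 0.76 to 1.07 on the t(1;14) arrays. In oligospermic against control testis 1 of the 4 spermatocyte markers, SPO11, fell by 2.14 (limma adjusted p = 0.00328), where 0.195% of all named genes passed. The spermatocyte list lay at -0.66 to -0.40 on the oligospermic arrays and at -0.07 to 0.10 on the controls. The part of cell composition in the enzyme values was not tested.

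The patterns of CYP17A1 and CYP19A1 over the 9 arrays were also set against those of 5431 other named genes, by the root mean square difference of log2 values after each gene was centred on its mean. Nearest to CYP17A1 were GSTO1 at 0.078, SLC26A3 at 0.125, MGST1 at 0.144, BCKDHB at 0.177 and WLS at 0.179, whose log2 fold changes in t(1;14) against control ran from 2.01 to 2.32. Nearest to CYP19A1 were RPS10 at 0.0708, KLF17 at 0.0717, MIDN at 0.0749, TRA2B at 0.0872 and RPL7 at 0.0928, with differences of 0.23 to 0.43. The other enzymes of the set were left out of this search, so it does not say how near their patterns were.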

How the data were processed

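Total RNA of 9 testis samples, 3 per group, was labelled with cyanine 3 and hybridized to a customized 60K Agilent porcine array. The authors deposited scanner files with processed spot intensity, background subtracted by the scanner software, and a table of log2 values, which the methods describe as log-transformed and quantile normalized. That log2 table of the authors holds 38759 probes and 20 of the 22 enzyme probes, has a median of 7.87 in every column, and correlated at 0.9996 or above with the values used here.

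Control probes were left out. Antisense probes were not taken as probes of any enzyme or named gene, but stayed among the probes normalized and tested. Log2 intensity was quantile normalized over the 9 arrays, and probes well above background and not an outlier on 2 of 3 arrays of a group were retained (41105). One limma model (R 4.3.3, limma 3.58.1) with 3 group means gave 3 comparisons. Thresholds followed the methods, 0.01 for the adjusted p and 2 for the size of the log2 fold change. The number of arrays limits the precision, and intervals are 95%. The model was tested on simulated data.

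Named genes were every enzyme with all its probes, STAR, the 3 largest rises and falls past the adjusted p in the steroid lists (none fell on its brightest probe), and the 5 genes nearest in pattern to CYP17A1 and CYP19A1. Members and lists were chosen with earlier results of these data known. The results of 1 gene list are not reported here. Chromosomes and the gene order come from RefSeq (Sscrofa11.1), for names only.

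Each slide held 1 array per group. For control and oligospermic arrays the replicate number was also the slide, and deviations from the group means of same-numbered arrays correlated at 0.478, 0.136 and 0.101. For t(1;14) against control they correlated at -0.285, -0.194 and 0.139 by number and at 0.339, 0.109 and 0.119 by slide. The main model did not pair the arrays, and slide or replicate entered only as a block in the alternatives. Alternatives were another scaling, normexp with an offset of 50, other filters, the 6 arrays of each comparison, the authors' values, slide or replicate blocks, an intensity trend, marker probes saturated on no array (chosen after seeing the data), a fold threshold of 1 and each replicate left out.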

Additional observations from a re-analysis of the deposited data

How the results depend on the processing

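Counts of enzyme probes past the adjusted p stayed within 1.5 times the reported ones under every alternative run, with 16 to 18 for t(1;14) against control, 0 for oligospermic against control and 15 to 17 for t(1;14) against oligospermic. With a fold threshold of 1 in place of 2 on the log2 scale, the differential probes numbered 16 for t(1;14) against control and 15 for t(1;14) against oligospermic. With normexp the latter numbered 3, and leaving out 1 replicate at a time they ran from 3 to 6, the 3 being without oligospermic replicate 3; against control they ran from 5 to 6. With the replicate block the differential probes numbered 5, 0 and 6 in the 3 comparisons, the same as without it, but replicate numbers of the t(1;14) arrays do not follow the slides. With the slide as a block the differential probes were again 5, 0 and 6 and those past the adjusted p 18, 0 and 17, while the other steroid genes past it numbered 14, 0 and 18 of 24, against 10, 0 and 14 without the block. Among the 378 gene fold changes recomputed, 366 kept direction and side of the threshold, 7 newly passed, 3 no longer passed (HSD3B1, t(1;14) against control) and 2 reversed, both near 0 in t(1;14) against oligospermic, namely HSD3B1 at -0.0351 without t(1;14) replicate 2 (up to 0.1393 without another replicate) and SULT1E1 at -0.0091 without oligospermic replicate 3 (up to 0.4417). The cause of these shifts was not tested. The HSD3B1 probe at base 257 was above background on few control and oligospermic arrays, which limits it.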
